A study of Mus musculus with 3 samples.

Results

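The transcripts described here are 6 genes of mature olfactory sensory neurons, Omp, S100a5, Gng13, Stoml3, Cnga2 and Adcy3, followed by gene symbol among the 19640 genes with a count in spatial arrays of the mouse main olfactory bulb. The data were 3 coronal sections of adult bulb from strain C57BL/6J at 12 weeks of age, with no treatment or genotype contrast, and polyadenylated RNA was captured on a dense array of spots. The sources used here do not say which animals the sections came from, so p-values measure only the spread between these sections, which may be technical. Each spot is a small area that can cover several cells or part of one, and the deposited annotation assigned spots to 9 regions. The outermost is the olfactory nerve layer, written ONL, and beneath it is the glomerular layer, GL. The next is EPL, the external plexiform layer, then M/T, the mitral layer, and IPL, the internal plexiform layer. Deepest are the granule cell layer in an external part, GCL-E, and an internal part, GCL-I, with E, the ependymal cell zone, and RMS, named the rostral migratory system. The 7 regions inside the glomerular layer are called the inner regions below. The sources used here do not say how the regions were outlined or on what evidence.

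Olfactory sensory neurons have their cell bodies in the nasal epithelium, not in the bulb. Their axons run over the bulb's surface as the nerve layer and end in the glomeruli, where they contact mitral, tufted and periglomerular cells. RNA of these neurons reaches the bulb in those axons and their endings. In the cilia of the same neurons, odorant receptors act through a G protein on the adenylyl cyclase made from Adcy3, and cyclic AMP opens the channel of which Cnga2 is a subunit. Omp encodes olfactory marker protein, the classical marker of mature sensory neurons, S100a5 encodes a calcium-binding protein of these cells, Gng13 encodes a G-protein gamma subunit, and Stoml3 encodes a stomatin-family membrane protein. In data of this kind, fewer axons and less RNA per axon cannot be told apart.

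The genes lie on 5 chromosomes of the GRCm38 assembly. Omp is a single-exon gene on chromosome 7 (98143359 to 98145502, minus strand), inside the span of Capn5 on the same strand, with which it shares 0 exon bases. S100a5 (90608523 to 90611780, plus strand) and Stoml3 (53488653 to 53508502, plus strand) are both on chromosome 3. Gng13 is on chromosome 17 (25717171 to 25719406, plus strand), Cnga2 on chromosome X (71991849 to 72010218, plus strand) and Adcy3 on chromosome 12 (4133103 to 4213525, plus strand). Of the 773 exon bases of Gng13, 399 overlap Chtf18 on the other strand, and of the 6246 exon bases of Adcy3, 1380 overlap Cenpo on the other strand. The sources used here do not say whether counting used strand, so reads from such overlaps may be shared, but Chtf18 had 18 counts and Cenpo 3 in all, against 183 for Gng13 and 36 for Adcy3.

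The 3 promoters printed here, at the first listed start of each gene, belong to genes called higher in the nerve layer than in the inner regions and present in a RefSeq promoter table (build GRCm38.p6), which matched 5 of the 6 genes with 7 start sites. Cnga2 and Adcy3, also in the table, were not called there. Each line runs 5′ to 3′ on the plus strand from 250 bases before the annotated start to the start itself, which is the last base and in capitals. The other capitals, in Gng13, mark 2 overlapping matches to CCCNNGGG, the core of the binding motif of the Ebf (Olf-1) family of transcription factors, which act in olfactory sensory neurons.
S100a5 chr3:90608272-90608522: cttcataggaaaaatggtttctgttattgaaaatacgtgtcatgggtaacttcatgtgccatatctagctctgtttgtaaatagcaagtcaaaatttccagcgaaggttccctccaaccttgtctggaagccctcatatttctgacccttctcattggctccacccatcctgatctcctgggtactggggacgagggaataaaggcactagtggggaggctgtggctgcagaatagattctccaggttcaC
Gng13 chr17:25716922-25717172: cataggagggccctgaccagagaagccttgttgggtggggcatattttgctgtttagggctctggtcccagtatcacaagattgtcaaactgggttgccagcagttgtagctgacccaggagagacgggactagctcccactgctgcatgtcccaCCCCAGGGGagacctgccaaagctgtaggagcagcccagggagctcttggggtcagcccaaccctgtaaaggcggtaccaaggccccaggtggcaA
Stoml3 chr3:53488457-53488707: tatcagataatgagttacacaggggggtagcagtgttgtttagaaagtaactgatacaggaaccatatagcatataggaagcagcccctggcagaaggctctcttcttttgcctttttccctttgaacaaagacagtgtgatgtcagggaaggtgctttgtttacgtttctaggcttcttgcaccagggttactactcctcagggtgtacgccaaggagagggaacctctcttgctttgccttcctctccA
Matches were sought on both strands of the 300-base windows from 250 bases before to 50 after the start. The full motif of 10 letters, this core with a T before it and an A after it, was in 0 of the 7 windows and in 0.9% of the 32851 windows of all genes. The core was in the first Gng13 window, from 95 to 87 bases before the start, and in the Cnga2 window, from 66 to 59 bases before it, against 13.67% of all windows. Both windows also hold the core with the T but not the A, as 6.56% of all windows do. The homeodomain core TAATTA was in 0 of the 7 windows and 5.29% of all. The letters TATAAA were likewise in 0 of the 7 and in 13.62% of all. A missing match says only that these letters are not in these windows.

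The 3 sections held 344372, 650890 and 505710 counts, and the 27 sums over a section and region ranged from 1456 counts in the RMS of section 3 to 182699 in the EPL of section 2. Section 1 had only 15526 counts in the ONL, against 70661 in section 2 and 54916 in section 3, so its ONL values rest on few reads. At this depth the 6 genes together had 112 counts in section 1, 338 in section 2 and 313 in section 3, on 716 spots in all. No spot held counts of more than 1 of the 6 genes, and the highest count in a spot was 3, so the genes were compared over regions and not spot by spot. S100a5 had 295 counts in the 9 regions, Gng13 183, Omp 167, Stoml3 76, Adcy3 36 and Cnga2 4. Only Omp, S100a5 and Gng13 were among the 1996 genes that passed the filter on low counts. The other 3 were tested only in a fit without the filter, over 19621 genes. Levels are CPM, the count of a gene scaled to 1000000 counts in its sum, and they are compared between regions for 1 gene at a time.

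**Figure D1:**
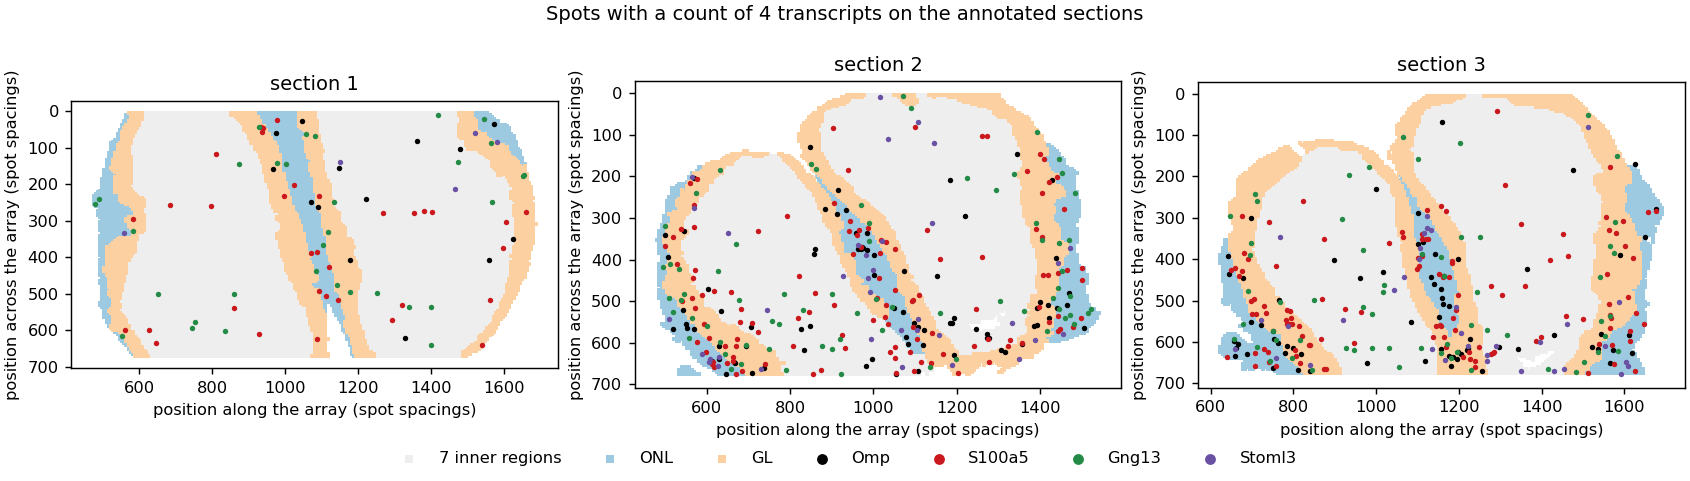
Spots with a count of Omp, S100a5, Gng13 or Stoml3 (coloured dots) on the 3 sections, with the ONL in blue, the GL in orange and the 7 inner regions in grey. Both axes are position on the array in spot spacings. Each section holds 2 bulbs side by side, and the dots lie mostly in the blue and orange rims.

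By mean level, the nerve layer ranked first and the glomerular layer next for Omp, S100a5, Gng13 and Stoml3, above each of the 7 inner regions. For Stoml3 the GL mean of 47.1 CPM was close to the EPL mean of 44.9 CPM, and their values overlapped. Together the ONL and GL held 31.8% of all counts of the sections but 74.9% of Omp counts (125 of 167, exact 95% binomial interval 67.6% to 81.2%). They held 66.8% of S100a5 counts (interval 61.1% to 72.1%), 61.7% of Gng13 counts (interval 54.3% to 68.8%) and 64.5% of Stoml3 counts (interval 52.7% to 75.1%). Of Adcy3 counts they held 38.9%, with an interval of 23.1% to 56.5% that includes the share of all counts. Intervals here and below cover counting error only.

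Omp measured 258, 410 and 601 CPM in the ONL of sections 1, 2 and 3, and 81.6, 198.6 and 189 CPM in the GL. The 7 inner regions pooled gave 25.0, 52.0 and 41.3 CPM. In each section the order was ONL, then GL, then inner regions, and the 3 groups of values did not overlap. The means were 423 ± 172 CPM in the ONL (SD, n = 3, 66 counts), 156 ± 65.0 CPM in the GL (59 counts) and 39.5 ± 13.6 CPM in the inner regions (42 counts). Over pooled counts the ONL was 11.3-fold higher than the inner regions (interval 7.58 to 17.1) and the GL 4.30-fold higher (interval 2.85 to 6.55).

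S100a5 measured 773, 495 and 692 CPM in the ONL, 245, 291 and 424 CPM in the GL and 75.1, 106 and 102 CPM in the inner regions. Here too the 3 groups did not overlap, and section 1, which was lowest for Omp in the ONL, was highest for S100a5. The means were 653 ± 143 CPM in the ONL (SD, n = 3, 85 counts), 320 ± 92.8 CPM in the GL (112 counts) and 94.4 ± 16.9 CPM in the inner regions (98 counts). The pooled ratio to the inner regions was 6.25 for the ONL (interval 4.62 to 8.45) and 3.50 for the GL (interval 2.64 to 4.64).

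Gng13 measured 515, 340 and 164 CPM in the ONL, 224, 172 and 265 CPM in the GL and 64.4, 61.5 and 82.6 CPM in the inner regions. The ONL and GL values overlapped, since section 3 had less Gng13 in the ONL than in the GL, while both layers lay above the inner regions in each section. The means were 340 ± 176 CPM in the ONL (SD, n = 3, 41 counts), 220.4 ± 46.4 CPM in the GL (72 counts) and 69.5 ± 11.5 CPM in the inner regions (70 counts). The pooled ratio to the inner regions was 4.22 for the ONL (interval 2.80 to 6.30) and 3.15 for the GL (interval 2.23 to 4.44).

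**Figure D2:**
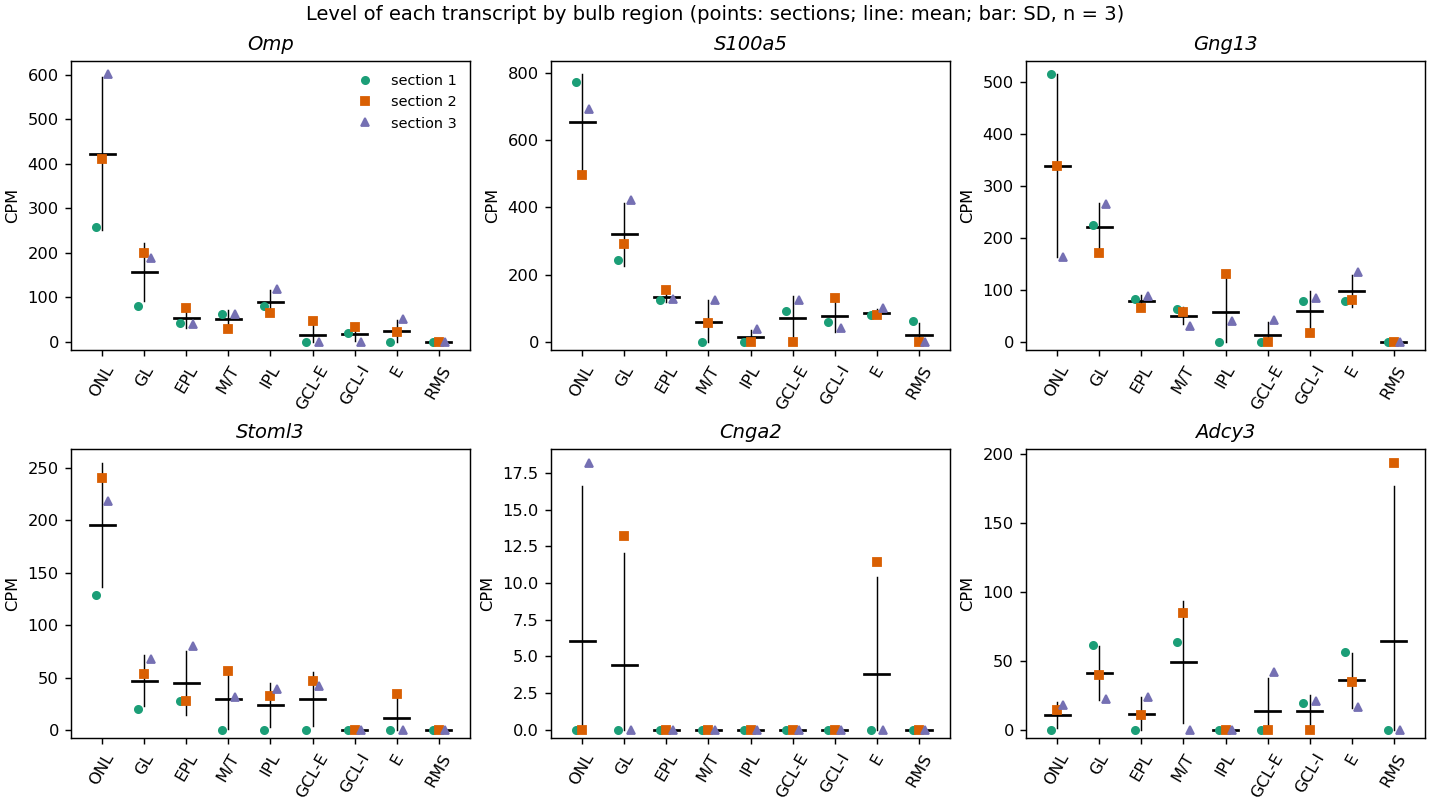
Level of each of the 6 transcripts in CPM (vertical axes, linear and of different range) in the 9 regions from outside to inside, with 1 point per section, a line at the mean and a bar of 1 SD (n = 3). The ONL points of Omp, S100a5 and Stoml3 lie above all their GL points, those of Gng13 overlap, and Cnga2 and Adcy3 show no such step.

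Against the mean of the 7 inner regions, all 3 tested genes were called higher in the ONL and in the GL by edgeR's quasi-likelihood test. As background, 6.61% of tested genes were called higher in the ONL and 9.67% higher in the GL. The filter asks for enough counts in at least 3 sums, and Omp, S100a5 and Gng13 were highest in sums of the ONL and GL. They therefore entered the test through the layers where they are high, so 3 of 3 called cannot be weighed against that background. In the ONL the fitted log2 fold change was 4.25 ± 0.43 (SE) for Omp (Benjamini-Hochberg adjusted p = 8.46e-21), 3.46 ± 0.32 for S100a5 (adjusted p = 1.30e-25) and 3.26 ± 0.48 for Gng13 (adjusted p = 7.71e-10). Of all 1996 tested genes 7.77% were called in this comparison, 132 higher and 23 lower, or 98 higher and 57 lower with scaling by library sizes alone. In the GL the fitted log2 fold change was 2.81 ± 0.47 for Omp (adjusted p = 1.16e-07), 2.54 ± 0.30 for S100a5 (adjusted p = 7.04e-15) and 2.75 ± 0.43 for Gng13 (adjusted p = 1.20e-08). Here 12.9% of tested genes were called, 193 higher and 64 lower, or 113 higher and 100 lower with library sizes alone. The fitted contrast weights each inner region equally, while the pooled ratio weights it by its counts, and several inner regions hold 0 counts of a gene. The fitted changes were larger than the ratios, and what sets the gap was not tested. The median log2 fold change of all tested genes was 0.09 in the ONL and 0.12 in the GL. The 3 genes kept these calls in every alternative that gave them a value.

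Between the 2 outer layers, Omp and S100a5 passed the test and Gng13 did not. Omp was higher in the ONL than in the GL, by 2.63-fold over pooled counts (interval 1.83 to 3.81) and by a log2 fold change of 1.44 ± 0.36 (adjusted p = 0.00523, edgeR), and S100a5 was higher by 1.79-fold (interval 1.33 to 2.39), a log2 fold change of 0.92 ± 0.26 (adjusted p = 0.0277). Of all tested genes 1.9% were called between these layers. For Gng13 the ratio was 1.34 (interval 0.891 to 1.99) and the log2 fold change 0.51 ± 0.37 (adjusted p = 0.686), which did not pass. The ONL to GL ratio of Gng13 was 2.30 in section 1, 1.97 in section 2 and 0.619 in section 3, so the sections did not share a direction. The Omp ratios were 3.16, 2.07 and 3.18 in sections 1, 2 and 3, and those of S100a5 were 3.16, 1.70 and 1.63, all above 1. The call of Omp was lost without section 2 or 3 (log2 fold change 1.68 and 1.24, adjusted p = 0.344 and 0.643), and that of S100a5 without any 1 of the sections (adjusted p = 0.0810, 0.436 and 0.376 without section 1, 2 and 3).

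Whether 2 of the genes divided their counts differently between these layers was tested within each section. In section 3 Omp divided into 33 counts in the ONL and 25 in the GL, and Gng13 into 9 in the ONL and 35 in the GL (two-sided Fisher's exact test, p = 0.000244, adjusted p = 0.00220 over 9 tests of 3 pairs in 3 sections). In section 1 the ONL and GL held 4 and 4 counts of Omp and 8 and 11 of Gng13, and in section 2 they held 29 and 30 of Omp and 24 and 26 of Gng13 (exact p = 1 in both). S100a5 had 38 counts in the ONL and 56 in the GL of section 3, a difference from Gng13 that did not pass after adjustment (exact p = 0.0221, adjusted p = 0.0995). The remaining 5 tests had adjusted p-values from 0.196 to 1. These tests cover counting error within 1 section only and take each count as independent, although the 35 Gng13 counts of the GL of section 3 lay on 31 spots. Only section 3 gave a difference, so none is shown across sections.

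Stoml3 measured 129, 241 and 219 CPM in the ONL, 20.4, 53.0 and 68.1 CPM in the GL and 7.15, 28.4 and 41.3 CPM in the inner regions, where section 1 holds 2, 1 and 2 counts. The ONL values lay above all others, while those of the GL and the inner regions overlapped. Its mean was 196 ± 59.2 CPM in the ONL (SD, n = 3, 31 counts), 47.1 ± 24.4 CPM in the GL (18 counts) and 25.6 ± 17.2 CPM in the inner regions (27 counts). The pooled ratio of ONL to inner regions was 8.28 (interval 4.78 to 14.4), that of ONL to GL 4.06 (interval 2.20 to 7.70) and that of GL to EPL 1.21 (interval 0.590 to 2.50). By section the GL to EPL ratio was 0.741, 1.94 and 0.853, so the GL lay below the EPL in sections 1 and 3. In the fit without a filter, where the median log2 fold change of all genes was 0.12 in the ONL and 0.59 in the GL, Stoml3 was called higher in the ONL than in the inner regions (log2 fold change 3.79 ± 0.54, edgeR adjusted p = 1.26e-09, 1.31% of 19621 genes called) and in the GL than in the inner regions (2.08 ± 0.60, adjusted p = 0.0239, 3.73% called). Between ONL and GL it was not called there (1.71 ± 0.50, adjusted p = 0.238, 0.0764% called).

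The genes of the cyclase and the channel were scarcely detected. Adcy3 measured 0, 14.2 and 18.2 CPM in the ONL, 61.2, 39.7 and 22.7 CPM in the GL and 25.0, 21.3 and 19.1 CPM in the inner regions, with 2, 12 and 22 counts. Its ONL mean of 10.8 CPM lay below its inner mean of 21.8 CPM with overlapping values, and the pooled ratio of ONL to inner regions was 0.655 (interval 0.0747 to 2.67). The GL ratio was 1.67 (interval 0.753 to 3.52), and neither passed in the fit without a filter (adjusted p = 1 and 0.194, edgeR). Adcy3 is also made by neurons of the brain, where its product sits in primary cilia. Cnga2 had 1 count in the ONL, 2 in the GL and 1 in the ependymal cell zone, so no difference between regions was detectable at this depth. A level of 3 counts, the floor used here, corresponds to between 42.5 and 193 CPM in the ONL of a section.

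The glomerular layer was also higher than the layer beneath it. For GL over EPL, Omp had a pooled ratio of 3.07 (interval 1.85 to 5.27), S100a5 of 2.42 (interval 1.73 to 3.42) and Gng13 of 2.84 (interval 1.82 to 4.54). The log2 fold changes of GL over EPL were 1.51 ± 0.42 for Omp (edgeR adjusted p = 0.0273), 1.20 ± 0.28 for S100a5 (adjusted p = 0.00347) and 1.45 ± 0.38 for Gng13 (adjusted p = 0.0150), when 1.6% of tested genes were called, 17 higher and 15 lower, or 21 higher and 9 lower with library sizes alone. All 3 calls were lost without section 2 (adjusted p = 0.661, 0.131 and 0.513 for Omp, S100a5 and Gng13), without section 3 (0.857, 0.761 and 0.729) and with DESeq2 (0.196, 0.0680 and 0.196).

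Among the inner regions S100a5 was higher in the EPL than in the regions beneath it, while Omp and Gng13 did not pass that test. S100a5 measured 124, 153 and 128 CPM in the EPL, against 0 to 132 CPM in the 6 deeper regions. The EPL was higher than the mean of these (log2 fold change 1.56 ± 0.39, edgeR adjusted p = 0.00105), in a comparison that called 14.7% of tested genes, 244 higher and 49 lower, or 127 higher and 159 lower with library sizes alone. Omp and Gng13 had log2 fold changes of 1.52 ± 0.68 (adjusted p = 0.132) and 1.52 ± 0.63 (adjusted p = 0.0924), which did not pass. That these genes differ in this step was not tested. Any difference among the 7 inner regions was called for S100a5 (adjusted p = 0.0331), as for 15.5% of tested genes, and not for Omp (0.243) or Gng13 (0.356). The S100a5 calls were lost without section 2 (adjusted p = 0.162 for the EPL, and 0.634 for any difference), and the call for any difference also without section 1 (0.0990) or 3 (0.0530). In the fit without a filter Gng13 passed in the EPL (log2 fold change 1.80, adjusted p = 0.0403), as it did with regions looked up by spot name (2.03, adjusted p = 0.0277). Without a filter 1185 of 19621 genes were called there, 1184 of them higher, and the median log2 fold change of all genes was 0.69. By spot name 310 of 2007 were called, 269 of them higher, with a median of 0.16.

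In the order of mean levels, S100a5 was the 1 gene whose first 3 regions, ONL, GL and EPL, each lay apart from the next, at 653, 320 and 135 CPM, with E next at 86.7 ± 11.95 CPM. Each region after E overlapped the one before it, and GCL-I, GCL-E, M/T, RMS and IPL had means from 77.7 to 13.2 CPM. For Omp the order was ONL, GL, IPL, EPL, M/T, E, GCL-I, GCL-E and RMS, and each region after the GL overlapped the one before it. The IPL value of 88.4 ± 27.3 CPM rests on 7 counts. For Gng13 the order was ONL, GL, E, EPL, GCL-I, IPL, M/T, GCL-E and RMS. The GL lay apart from the ependymal cell zone, which at 97.9 ± 31.3 CPM (22 counts) overlapped the EPL at 78.7 ± 11.6 CPM. For Stoml3 the ONL lay apart from the GL and all further neighbours overlapped. The RMS held 0 counts of Omp, Gng13 and Stoml3 and 1 of S100a5, of 22903 counts in all. At 3 counts the floor of the RMS is 184, 581 and 2060.4 CPM in sections 1, 2 and 3. Any lower level there, including that of S100a5, rests on fewer than 3 counts.

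Within the outer layers the position of a spot was measured as its depth. When the ONL was cut at its median depth, Omp measured 392, 458 and 662 CPM in the outer part and 127, 363 and 541 CPM in the inner part, higher outside in each of the 3 sections but with overlapping groups (log2 fold change 0.38 ± 0.45, edgeR adjusted p = 0.982). S100a5 measured 563 ± 156 CPM outside and 741 ± 242 CPM inside (adjusted p = 0.982), and Gng13 346 ± 153 CPM outside and 333 ± 230.3 CPM inside (adjusted p = 0.993). None of the 3 passed, in a comparison that called 0.541% of 370 tested genes. In the GL the outer part was higher in every section for Omp, S100a5, Gng13 and Stoml3, and not for Adcy3, which had 4 counts outside (19.1 ± 21.0 CPM) and 8 inside (62.4 ± 50.3 CPM). Omp measured 125, 277 and 302 CPM outside against 40.1, 127 and 86.6 CPM inside, and Gng13 415, 235 and 334 CPM outside against 40.1, 114 and 202 CPM inside. The outer and inner groups did not overlap for Gng13 and did for Omp. For S100a5 the values were 291, 388 and 524 CPM outside against 200.3, 203 and 332 CPM inside, which overlap. At the median cut neither S100a5 (log2 fold change 0.77 ± 0.30, adjusted p = 0.369) nor Gng13 (1.15 ± 0.37, adjusted p = 0.199) passed, and Omp fell under the filter, while 0.651% of 1536 genes were called. With the outermost against the innermost of 3 depth bands, when 3.32% of 874 genes were called, both passed (S100a5 1.41 ± 0.41, adjusted p = 0.0271, and Gng13 1.58 ± 0.48, adjusted p = 0.0379).

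**Figure D3:**
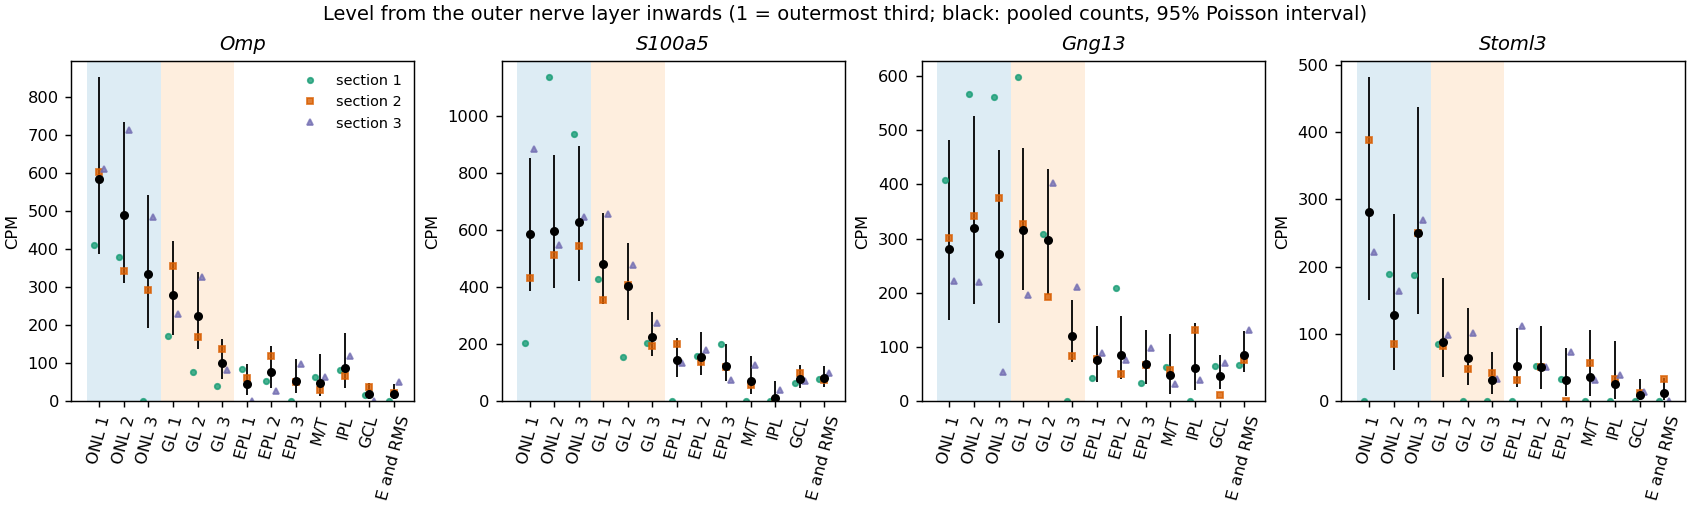
Level in CPM of 4 transcripts along the path from the surface inwards, with the ONL (blue), GL (orange) and EPL each cut into 3 bands (1 is outermost) and the deeper regions after them. The ONL bands are by distance to the nearest GL spot, with equal spot number in a section, and the GL and EPL bands by relative depth. Black points are pooled counts with exact 95% Poisson intervals and coloured points are sections. The black Omp points step down from the outermost ONL band to the innermost GL band, while the Omp points of single sections do not fall at every step. The black points of S100a5 and Gng13 change little across the ONL and are lowest of the GL in its innermost band.

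Pooled over sections, Omp measured 585, 489 and 334 CPM from the outermost to the innermost band of the ONL and 279, 222 and 101 CPM across the GL. S100a5 measured 585, 596 and 626 CPM across the ONL and 481, 403 and 226 CPM across the GL. Gng13 measured 282, 319 and 271 CPM across the ONL, 317 and 297 CPM in the first 2 bands of the GL and 120 CPM in the last. The intervals of neighbouring bands overlapped for all 3 genes, apart from the step of Gng13 at the last GL band, where 297 CPM (interval 197 to 429) met 120 CPM (interval 72.0 to 187). The bands describe these sections, and no test was run on their order.

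Position along the rim was also described. Each section holds 2 bulbs, and the ONL between them was set beside the ONL on their other sides. S100a5 measured 836 CPM between the bulbs (42 counts, interval 603 to 1130.2) and 473 CPM elsewhere (43 counts, interval 342 to 637), which also overlap, and in section 1 all 12 of its ONL counts lay between the bulbs. Gng13 measured 159 CPM between the bulbs (8 counts, interval 68.8 to 314) and 363 CPM elsewhere (33 counts, interval 249.98 to 510.01), with overlapping intervals. In section 2, 2 of its 24 ONL counts lay between the bulbs, and without that section Gng13 measured 246 CPM between them and 239 CPM elsewhere, an alternative chosen after seeing the data. Section 3 alone gave 196 and 152 CPM. Omp measured 577 CPM between the bulbs and 407 CPM elsewhere, and Stoml3 279 and 187 CPM, again with overlapping intervals. In the GL between the bulbs S100a5 measured 274 CPM, against 374 CPM elsewhere, so the direction seen in the ONL did not extend to it. These splits have few counts per section and were not tested.

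**Figure D4:**
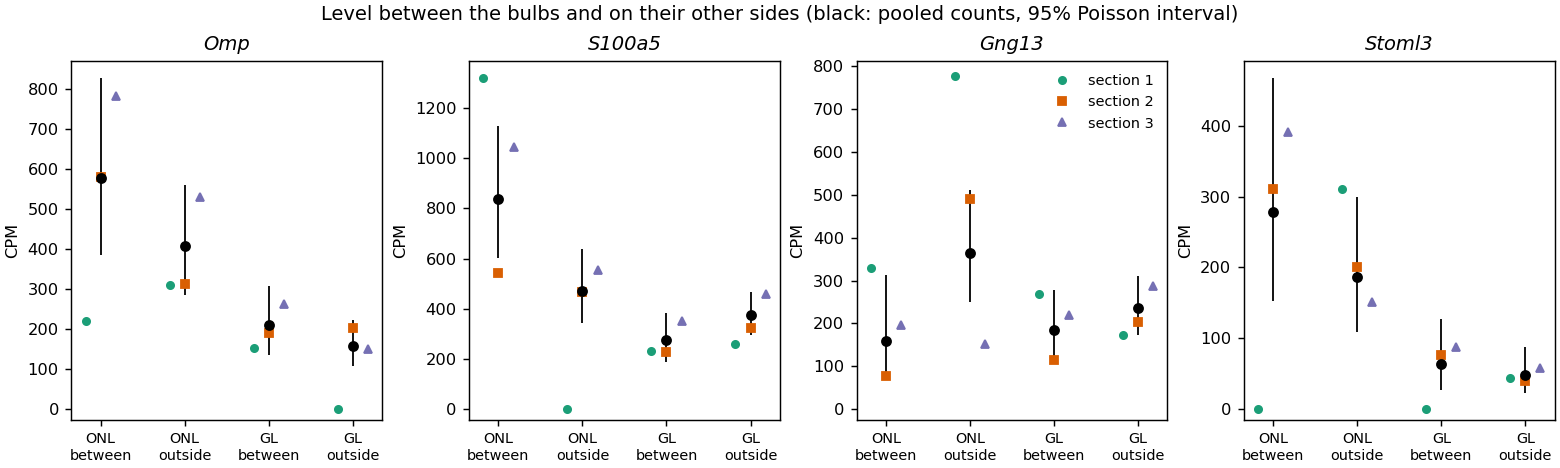
Level in CPM of 4 transcripts in the ONL and GL between the 2 bulbs of a section and on their other sides. Black points are pooled counts with exact 95% Poisson intervals and coloured points are sections. In the ONL S100a5 lies higher between the bulbs in all 3 sections, and Gng13 lower in sections 1 and 2 and higher in section 3.

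Parts of the GL are not covered by annotated ONL on the array. The 6 genes together measured 949 CPM in GL spots within 50 spot spacings of the ONL (214 counts, interval 826 to 1085), 674 CPM at 50 to 100 spacings (47 counts, interval 495 to 896) and 377 CPM at over 100 (14 counts, interval 206 to 633). By section the values were 674, 907 and 1119 CPM in the nearest band and 519, 336 and 344 CPM in the farthest, lower in each section. Spots deep in the GL also lie farther from the ONL, so these distances do not separate missing cover from depth. By relative depth, the 6 genes pooled over sections measured 1203, 1006 and 535 CPM from the outermost to the innermost GL band. The part of cover in the fall with distance was not tested. Split by array row, the GL of sections 2 and 3 held 941 and 1375 CPM of the 6 genes at row numbers above the median and 605 and 603 CPM at the others. Section 1 went the other way, with 220.1 CPM above the median (6 counts) and 1148 CPM at the others (25 counts). In the ONL the pooled values were 1611 CPM above the median and 1591 CPM at the others.

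Other genes of olfactory transduction and of sensory neurons were sparse. Of a list of 13, all had between 1 and 152 counts and 0 passed the filter. Without a filter 2 of 13 were called higher in the ONL and 2 of 13 in the GL than in the inner regions, the same pair in both, and 0 lower. Of all 19621 genes 1.31% were called in the ONL, 250 higher and 7 lower. In the GL 3.73% were called, 726 higher and 6 lower. Since this fit calls almost no gene lower, the 0 lower of the list carries no weight. The first was Gnal, which encodes the G-protein alpha subunit that couples odorant receptors to the cyclase. It measured 129, 241 and 200.3 CPM in the ONL, 61.2, 172 and 144 CPM in the GL and 28.6, 104 and 69.9 CPM in the inner regions, where granule cells also express it (edgeR adjusted p = 0.00191 in the ONL and 0.00183 in the GL). In the GCL-E alone Gnal measured 184, 94.3 and 208 CPM on 9 counts, which overlapped its values in both the ONL and the GL. The second was Pde1c, a phosphodiesterase that degrades cyclic nucleotides, at 104 ± 46.9 CPM in the ONL, 103 ± 55.0 CPM in the GL and 31.1 ± 23.6 CPM in the inner regions (SD, n = 3, adjusted p = 0.00479 and 3.53e-06). All 6 counts of Cngb1, a further channel subunit, all 8 of Ano2, the calcium-activated chloride channel of the cilia, and all 5 of Umodl1 lay in the ONL and GL. Ncam2, a cell adhesion gene of sensory axons, had 17 of 55 counts there, or 30.9% (interval 19.1% to 44.8%), and Ric8b 19 of 51, or 37.3%, both near the 31.8% of all counts, and Slc24a4 had 1 of 5 and Kirrel2 3 of 9. Over the 13 genes, 211 of 405 counts, or 52.1% (interval 47.1% to 57.1%), lay in the ONL and GL.

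Odorant receptor genes, of which each sensory neuron expresses mainly 1, left 44 counts over 37 genes with symbols starting in Olfr. Of these genes 33 had a single count, and Olfr287 had the most with 5. Summed, they measured 64.4, 113 and 109 CPM in the ONL, 0, 59.6 and 22.7 CPM in the GL and 14.3, 16.5 and 19.1 CPM in the inner regions. The ONL lay above both others in each section, with 15 of the 44 counts, and its pooled ratio to the inner regions was 6.36 (interval 2.96 to 13.5). The GL and the inner regions overlapped, with a ratio of 2.16 (interval 0.942 to 4.80). Capn5, within which Omp lies, had 13 counts, 6 of them in the ONL and GL.

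The rims hold other cells as well, and markers of some of them were higher in the same regions. Of 7 ensheathing glia genes, which mark the glia that wrap sensory axons, 3 were tested. All 3 were called higher in the ONL and in the GL than in the inner regions, as were 6.61% of tested genes in the ONL and 9.67% in the GL. Here too a gene can enter the test through the layers where it is high, so 3 of 3 cannot be weighed against that background. Apod measured 1937 ± 432 CPM in the ONL, 817 ± 125 CPM in the GL and 296 ± 34.3 CPM in the inner regions (SD, n = 3, log2 fold change 2.98 in the ONL, edgeR adjusted p = 2.03e-61). Fabp7 had a log2 fold change of 2.87 in the ONL and Npy of 2.11. Of the untested genes of this list, only Sox10 passed without a filter for the ONL (edgeR adjusted p = 0.000742). Frzb (0.0538), Matn2 (0.823) and Ngfr did not. For the GL, Sox10 (0.0909), Frzb (0.185), Matn2 (0.389) and Ngfr (0.475) did not pass. The summed level of the 7 genes ranged from 3929 to 5293 CPM in the ONL, from 1549.5 to 2359.6 CPM in the GL and from 829 to 887 CPM in the inner regions, and Ngfr had 0 counts in the ONL. The 6 meningeal genes, with Dcn and Igf2 the most abundant in the ONL and 0 passing the filter, summed to between 193 and 856 CPM in the ONL, 20.4 and 219 CPM in the GL and 42.9 and 104 CPM in the inner regions. In the fit without a filter, Dcn (edgeR adjusted p = 6.13e-16), Igf2 (1.69e-11), Mgp (0.000977) and Slc6a13 (0.0121) passed for the ONL against the inner regions. Col1a2 (0.0596) and Lum (0.695) did not, when 1.31% of genes were called. For the GL, Slc6a13 (0.000738) and Col1a2 (0.0176) passed, when 3.73% were called. The 4 haemoglobin genes, of which 3 were called higher in the ONL and 3 in the GL against the same background of 6.61% and 9.67%, summed to between 2095 and 3736 CPM in the ONL, 1245 and 1906 CPM in the GL and 755 and 1541 CPM in the inner regions. The part of these cells in the levels of the 6 sensory genes was not tested.

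Markers of the bulb's own cells were counted in the same way, against 6.61% of tested genes called higher and 1.15% lower in the ONL, and 9.67% higher and 3.21% lower in the GL. Scaling by library sizes alone moves the lower calls of all genes to 57 in the ONL and 100 in the GL. Of 4 periglomerular genes 2 were tested, with 1 called higher in the ONL and both in the GL, and their sum ranged from 509 to 1224 CPM in the ONL, 920.2 to 2182 CPM in the GL and 381 to 733 CPM in the inner regions, with Calb1 and Ddc at 0 counts in the ONL. Of 7 mitral and tufted cell genes 6 were tested, with 1 called higher in the ONL and 5 in the GL. Their sum in sections 1, 2 and 3 was 3220, 1076 and 1293 CPM in the ONL and 4404, 2238 and 2102 CPM in the GL. The inner regions gave 2696, 1627 and 1779 CPM, above the ONL in sections 2 and 3. Within them the EPL gave 5888, 2343 and 2618 CPM and the M/T 4948, 2860 and 3436 CPM, both above the GL in each section. Against the EPL alone, 0 of these 6 tested genes were called higher in the GL and 1 lower, when 17 of all tested genes were called higher and 15 lower. All 7 granule cell genes were tested, with 2 called lower in the ONL and 5 in the GL, and their sum ranged from 3405 to 4702 CPM in the ONL, 3093 to 3894 CPM in the GL and 5211 to 6319 CPM in the inner regions. Of 5 astrocyte genes 2 were called higher in the ONL and 4 in the GL. The astrocyte sum in sections 1, 2 and 3 was 2641, 6128 and 5681 CPM in the ONL and 2671, 6891 and 6950 CPM in the GL. The inner regions gave 2306.5, 7350 and 6761 CPM, above the ONL in sections 2 and 3 and above the GL in section 2. Th, Cck, Gja1 and Glul of these lists were called higher in both layers. Of 2 tested oligodendrocyte genes 1 was called lower in the ONL and both in the GL.

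The genes whose pattern over the 27 sums was most like each tested gene are given as a description, since the sums share sections and differ in depth. By Pearson correlation of log2(CPM + 10) centred within a section, among 1995 genes, Omp was most like Ptgds (r = 0.74), Gm13341, Npy and Asph. Ptgds, the prostaglandin D synthase made in meninges and glia, measured 4092 ± 471 CPM in the ONL, 1177 ± 332 CPM in the GL and 704 ± 39.7 CPM in the inner regions (SD, n = 3). S100a5 was most like Hbb-bt, a beta-globin gene (r = 0.79), Utrn, Crebrf and Gm28439, and Gng13 most like Eprs (r = 0.79), Med13, Sept3 and Sash1. Gng13 ranked 5 by likeness to S100a5 (r = 0.68) and 17 by likeness to Omp (r = 0.63). Omp and S100a5 had r = 0.51. With a pseudocount of 1 CPM those ranks of Gng13 became 22 and 62, the r of Omp and S100a5 became 0.35, and only 0, 2 and 2 of the 4 genes listed for Omp, S100a5 and Gng13 were again among the 4 most alike.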

How the data were processed

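The 6 genes and all gene lists were chosen with earlier results of these data known. The authors deposited, per section, raw counts for each spot and gene, and a table of array position, pixel position and region of each spot under tissue, per the file headers. The sources used here do not give the aligner, the counter, the annotation or whether counts are unique molecules. The build named is mm10, per the submitters' processing notes. Depth was 344372, 650890 and 505710 counts per section. Entries without a gene name (0.0325%, 0.0764% and 0.0801% of counts) and spots without a region (0, 1 and 1 count of the 6 genes) were left out.

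The region of each entry was looked up by its pixel coordinates, found for 100% of entries. Looking it up by spot name instead gave the same region for 100%, 97.1% and 97.1%. Sums per region within each section were tested with edgeR 4.0.16 (quasi-likelihood, R 4.3.3), with region and section as terms, TMM scaling, filterByExpr with a minimum count of 10 and Benjamini-Hochberg adjustment over all tested genes, at a threshold of 0.05. Section was a term because the 9 sums from 1 section come from the same tissue and array. After subtracting region means, sums from 1 section had a mean correlation of 0.38 (lowest 0.0319 over 108 comparisons of regions), and those from different sections of -0.17. The lowest value is not above 0.1, so the pairing rests on the shared tissue and array. SEs are the fold change over the root of the F statistic. ONL depth is distance to the nearest GL spot, and GL depth is relative to ONL and EPL. Gene positions are from GENCODE M21, in which 99.8% of symbols were found. Genes named are the 6, in each list those with the most counts and those called together with the 6, and the 4 most alike each tested gene. Other list genes named for having 0 counts, a stated share or a meningeal or ensheathing glia p-value were chosen after their values were seen. A gene of the ensheathing glia list is not reported here and was left out of its counts and sums. The pipeline was tested on simulated data. Alternatives were RLE scaling, library sizes alone, no filter, DESeq2 1.42.0, no section term, each section left out, spots at most 5 array positions from another region removed, the join by name, no RMS, 3 depth bands and a pseudocount of 1 CPM. Python 3.11.15, pandas 2.3.3, scipy 1.17.1 and matplotlib 3.10.9 were also used.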

Additional observations from a re-analysis of the deposited data

How the results depend on the processing

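The higher level of Omp, S100a5 and Gng13 in the ONL and GL than in the inner regions kept its direction and call in all alternatives that gave a value, with the highest adjusted p 9.32e-07, 9.90e-08 and 0.00161 for the ONL and 0.00379, 0.000118 and 0.00260 for the GL. Over all comparisons and alternatives, 166 fold changes of these genes kept direction and side of the threshold, 28 lost the call, 4 gained one and 3 reversed.

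Between ONL and GL, the log2 fold change lost its call without a filter (Omp 1.12, S100a5 0.60), without the replicate block (1.47 and 0.99) and, for S100a5, with border spots left out (0.76), and leaving out 1 section gave 1.24 to 1.68 for Omp and 0.82 to 1.08 for S100a5. Between GL and EPL it lost its call without a filter (Omp 1.46, S100a5 1.14, Gng13 1.39), with DESeq2 (1.52, 1.18 and 1.45), without the replicate block (1.52, 1.22 and 1.45) and, for Omp, without border spots (1.34). Leaving out 1 section there gave 1.22 to 1.75 for Omp, 0.89 to 1.45 for S100a5 and 1.34 to 1.49 for Gng13. The cause was not tested. Between ONL and GL, DESeq2 gave no adjusted p for these genes. Gng13 in the outer over the inner ONL reversed without the block (-0.023), without section 3 (-0.52) and by spot name (-0.045).

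Counts of genes called moved as follows, in the order ONL against inner, GL against inner, ONL against GL, GL against EPL, EPL against deeper and any inner difference. Without a filter they were 257, 732, 15, 12, 1185 and 464. Without the replicate block they were 38, 16, 0, 0, 25 and 7 (191, 190, 50, 31, 243 and 144 at an unadjusted p under 0.05). DESeq2 gave 164, 16 and 10 for the second to the fourth. Leaving out 1 section gave 57 to 201, 79 to 246, 6 to 45, 3 to 49, 127 to 289 and 108 to 329. Within the ONL, 1 gene was called with RLE, without a filter and with DESeq2, 0 without the block (2 unadjusted) and 0 to 2 without 1 section. Within the GL, 6 were called with library sizes alone, 5 without a filter, 0 with DESeq2 (13 unadjusted) and without the block (24 unadjusted), 29 with 3 depth bands and 0 to 7 without 1 section. Leaving out border spots moved the median log2 fold change of all genes to 0.74 in the ONL and GL against the inner regions, and no filter to 0.59 in the GL. Depth limits Stoml3, Adcy3 and Cnga2 most.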
